A study of Mus musculus with 3 samples.

Results

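The immunoglobulin constant genes described here are Ighm, Ighd, Igha, Igkc, Iglc1, Iglc2 and Iglc3, together with Jchain, the chain that joins secreted IgM and IgA into polymers. They are 8 of the 32285 genes counted, they were picked by symbol, and all 8 were present in the count tables. Each B cell makes an antibody from heavy chains and light chains of 1 type, kappa (Igkc) or lambda (Iglc genes). A naive B cell displays IgM and IgD (Ighm and Ighd) on its surface, and switching replaces them with IgG, IgA or IgE. A plasma cell secretes antibody and devotes much of its mRNA to the chains of that antibody. B-1 cells, a B cell type of body cavities such as those the diaphragm separates, carry much IgM and little IgD, whereas follicular (B-2) cells carry much IgD.

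The data were single-cell RNA-Seq of mononuclear cells from mouse costal diaphragm, digested with collagenase II and sorted to remove DAPI-stained dead cells, with 1 library per group. WT CD and WT HFD were C57Bl/6J mice given control chow or high-fat diet (HFD, 45% of calories from lipid) for 6 months, from 2 months of age. KO HFD were Thbs1-/- mice (B6.129S2-Thbs1tm1Hyn/J, a whole-body loss of thrombospondin-1 in every cell type) on the same HFD. No KO library on control diet was analysed here, and the animals were male, with 2 mice pooled per group by the study's description, so a group is a single sample and differences between groups carry no replicate check and no p-value.

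The libraries of WT CD, WT HFD and then KO HFD held 34312860, 31967976 and 36478779 unique molecular identifiers (UMIs, 1 per captured molecule) in 4132, 3774 and 4369 barcodes, 12275 in all. Median depth was 7632.5, 8041.5 and 7554 UMIs per barcode. Among all barcodes, 16 sequences occurred in more than 1 library, and 2 WT CD, 0 WT HFD and 1 KO HFD barcodes of the B lineage were among them. B cells were barcodes with at least 3 UMIs of Cd79a and Cd79b, the signalling chains of the B cell receptor, and none of the T cell gene Cd3e. Plasma cell barcodes held at least 10 Jchain UMIs and at least 5% of their UMIs on constant genes. Levels are CPM, the UMIs of a gene in the summed barcodes scaled to a total of 1000000 UMIs, with exact Poisson intervals, shares carry exact Clopper-Pearson intervals, and log2 ratios carry exact binomial intervals. Intervals are 95% intervals and reflect counting error alone. The chemistry counts 3′ ends, 1 per molecule, so levels of different genes were not divided by length.

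Sequences are shown for the lambda genes because their near identity limits how reads can be told apart. The last 90 coding bases of each gene are given in GRCm38 from the GENCODE vM21 annotation, on the minus strand, 5′ to 3′, with capitals at bases that differ from Iglc2. Iglc2 lies at chr16:19198539-19198628, Iglc3 at chr16:19065368-19065457 and Iglc1 at chr16:19061755-19061844 for the stretch shown.
Iglc2: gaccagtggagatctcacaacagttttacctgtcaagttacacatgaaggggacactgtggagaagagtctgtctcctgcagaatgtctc
Iglc3: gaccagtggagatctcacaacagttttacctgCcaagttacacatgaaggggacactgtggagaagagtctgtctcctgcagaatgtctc
Iglc1: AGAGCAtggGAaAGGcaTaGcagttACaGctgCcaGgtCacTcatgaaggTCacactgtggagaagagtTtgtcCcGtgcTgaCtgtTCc
Iglc3 differed from Iglc2 at 1 of the 90 bases (98.9% identical) and Iglc1 differed at 29 (67.8% identical). Reads of Iglc2 and Iglc3 could therefore be given to either gene or left uncounted, and their separate values are uncertain.

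The ends of the 2 annotated Ighm transcripts are shown because they separate the membrane form, carried by B cells, from the secreted form, made by plasma cells. The transcripts share 1305 coding bases and then diverge, Ighm-201 (4 exons, the secreted form) into 59 bases and Ighm-202 (6 exons, the membrane form) into 122. The last 30 shared bases are in lower case and the bases of each form alone are in capitals.
Ighm-201: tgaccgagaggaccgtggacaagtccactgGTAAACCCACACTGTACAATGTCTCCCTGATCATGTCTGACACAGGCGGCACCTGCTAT
Ighm-202: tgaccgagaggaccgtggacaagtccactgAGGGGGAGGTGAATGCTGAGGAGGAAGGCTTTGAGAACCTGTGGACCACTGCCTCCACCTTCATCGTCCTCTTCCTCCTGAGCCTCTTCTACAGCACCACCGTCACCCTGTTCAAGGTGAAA
The deposited counts merge both forms into 1 Ighm value, so the form was not measured and the split into B cells and plasma cell barcodes takes its place below. The heavy chain genes lie on the minus strand of chromosome 12 in GRCm38, Ighm at chr12:113418558-113422730, Ighd at chr12:113406604-113416324 and Igha at chr12:113254830-113260236. Igkc lies at chr6:70726435-70726966 on the plus strand, and Jchain at chr5:88519809-88527891 on the minus strand.

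B cells made up 440 barcodes of the WT CD library (10.6%, interval 9.72 to 11.6), 167 of WT HFD (4.43%, 3.79 to 5.13) and 105 of KO HFD (2.40%, 1.97 to 2.90). The label was checked against B cell genes that the gate did not use. Ms4a1, which encodes CD20, was at 954, 1015 and 766 CPM in B cells without plasma cell barcodes, and Pax5, the B lineage transcription factor, at 96.7, 100.1 and 70.7. The shares carry no replicate, and digestion or sorting that varied between samples cannot be told apart from diet or genotype.

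Plasma cell barcodes fell far more unevenly. There were 94 in WT CD (2.27%, 1.84 to 2.78), 7 in WT HFD (0.185%, 0.0746 to 0.382) and 11 in KO HFD (0.252%, 0.126 to 0.450). Of these 112, the gate already held 89, 7 and 10. As a share of B cells and plasma cell barcodes together they were 21.1% (17.4 to 25.2), 4.19% (1.70 to 8.45) and 10.4% (5.30 to 17.8). The intervals of WT CD and WT HFD do not overlap, while that of KO HFD overlaps both. These few barcodes held most of the immunoglobulin RNA: 95.1%, 80.4% and 95% of all Igkc UMIs, 93.7%, 57.4% and 89.1% of Ighm, and 99.8%, 99.4% and 99.8% of Jchain. The rule selects barcodes rich in Jchain and constant genes, so it sets part of these shares in advance. The 8 genes with the remaining heavy chain genes took 3.51% of every UMI in the WT CD library, 0.244% in WT HFD and 0.396% in KO HFD.

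**Figure D1:**
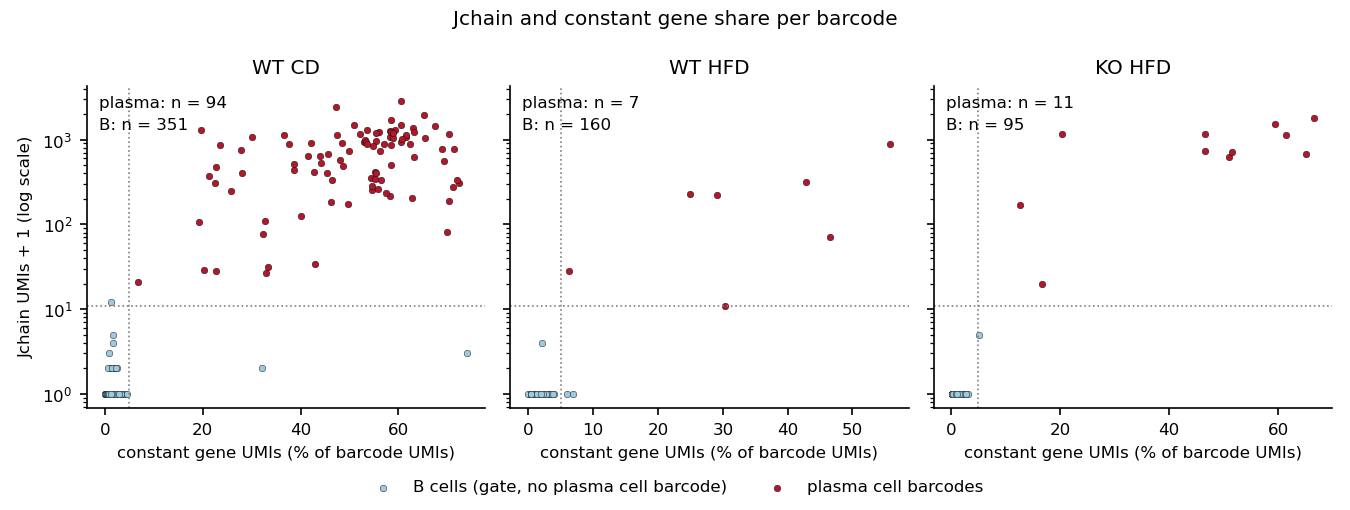
Each point is a barcode, with the share of its UMIs on constant genes on the horizontal axis (percent) and its Jchain UMIs plus 1 on the vertical log axis, for each library. Dotted lines mark the thresholds of 5% and 10 UMIs, which assign the colours, so the separation of red from blue follows from the rule. The 94 WT CD plasma cell barcodes (red) lie beyond both lines, as do the 7 of WT HFD and 11 of KO HFD, and B cells are in blue.

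The barcodes just inside the thresholds were a WT HFD barcode with 10 Jchain UMIs and 30.4% on constant genes, a KO HFD barcode with 19 and 16.7%, a WT HFD barcode with 27 and 6.22%, and a WT CD barcode with 20 and 6.81%. Just outside lay a WT CD barcode with 11 Jchain UMIs and 1.35%, and a KO HFD barcode with 4 and 5.19%. A WT CD barcode with 2 Jchain UMIs but 74.0% of its 26759 UMIs on constant genes also stayed outside, and it alone held 17532 Igkc UMIs. So did a WT CD barcode with 1 Jchain UMI, 1716 Igkc UMIs and 32.1% on constant genes. Both stand in the plasma cell-like cluster and are counted among the B cells below, where ratios decided by the first are also given without it.

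Genes of secretion that the rule did not use were checked next. Of the 12 plasma cell and secretory genes, 10, 10 and 9 were higher in plasma cell barcodes than in B cells of WT CD, WT HFD and KO HFD, where 14.8%, 36.1% and 22.6% of all genes were. Their summed level was 5182, 9447 and 4032 CPM against 1139, 1208 and 1012. Xbp1, the transcription factor of the secretory programme, was at 632, 277 and 660 against 39.6, 48.5 and 64.6. Tnfrsf17, which encodes the plasma cell survival receptor BCMA, was at 107, 46.1 and 76.1 against 0.307, 0 and 0. Sdc1, which encodes the surface marker CD138, was at 99.4, 28.8 and 102 against 3.07, 5.23 and 7.69. Irf4 and Prdm1, transcription factors of the plasma cell fate, were lower in each library on this scale, and in KO HFD so was Pou2af1, a B cell coactivator (43.5 against 61.5). Prdm1 was at 19.1, 11.5 and 10.9 against 25.5, 35.1 and 60, and Irf4 at 43.0, 23.1 and 25.4 against 53.4, 50 and 70.7. Immunoglobulin RNA lowers the CPM of every other gene in plasma cell barcodes. Scaled to UMIs outside immunoglobulin genes, 12, 10 and 10 of the 12 were higher, beside 56.3%, 52.7% and 54.4% of all genes, and Prdm1 and Irf4 turned in WT CD, to 42.5 against 26.0 and 95.6 against 54.5, while both stayed lower in WT HFD and KO HFD. Of the 14 genes of the B cell receptor complex and coreceptors, Cd81 alone was higher in plasma cell barcodes in each library by CPM, and 3 were by UMIs outside immunoglobulin genes. Cd79a, which the gate used, was at 458, 553 and 170 against 2662, 2609 and 2526.

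Clustering that left out every immunoglobulin gene placed 101 of 112 plasma cell barcodes in the plasma cell-like cluster. The other 11 lay in macrophage-like (6), B cell-like (2), endothelial-like (1), mast cell-like (1) and unnamed (1) clusters. Among these were the 3 shallowest, WT CD barcodes of 740, 793 and 1306 UMIs. Of the 606 B cells without a plasma cell call, 546 were in the B cell-like cluster, 13 in the plasma cell-like cluster, 37 in macrophage-like clusters (13, 19 and 5 by library) and 10 elsewhere. The 37 had a median of 18198 UMIs and Lyz2, a macrophage lysozyme gene, at 6283 CPM. Scrublet called 16, 2 and 4 of all gated barcodes doublets (more than 1 cell) in WT CD, WT HFD and KO HFD. Beyond those calls, whether the 37 hold more than 1 cell was not tested. The 13 held the cycling genes Mki67 and Top2a at 284 and 557 CPM, where B cell-like barcodes held 4.25 and 3.78.

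Ighm, the IgM heavy chain, was the most abundant heavy chain gene in both kinds of barcode. Plasma cell barcodes of WT CD, WT HFD and KO HFD held medians of 1563.5, 754 and 1281 Ighm UMIs and levels of 72183, 28481 and 58400 CPM. B cells held medians of 17, 16.5 and 9 UMIs and levels of 2902, 2304 and 2116. Igkc, the kappa light chain, reached 42.2%, 29.3% and 39.7% of all plasma cell UMIs, with medians of 8459.5, 7325 and 8750 per barcode. In B cells its medians were 51, 56.5 and 41 UMIs. The WT HFD library was lowest for Ighm, Igkc and Jchain in plasma cell barcodes, and its 7 barcodes lay within the range of the 94 of WT CD for Igkc (1569 to 11121 against 45 to 31286).

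Ighd and Igha marked the other ends of the heavy chain repertoire. Ighd, the IgD heavy chain, was at 97.6, 97.1 and 158 CPM in B cells and was represented by 1, 0 and 1 UMIs in all plasma cell barcodes. Igha, the IgA heavy chain, gave 33, 7 and 0 UMIs in all gated barcodes, never more than 5 in 1 barcode. Jchain had medians of 695, 218 and 739 UMIs in plasma cell barcodes, where the rule asked for 10. B cells held 32, 3 and 4 Jchain UMIs in all, a value the rule also bounded.

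**Figure D2:**
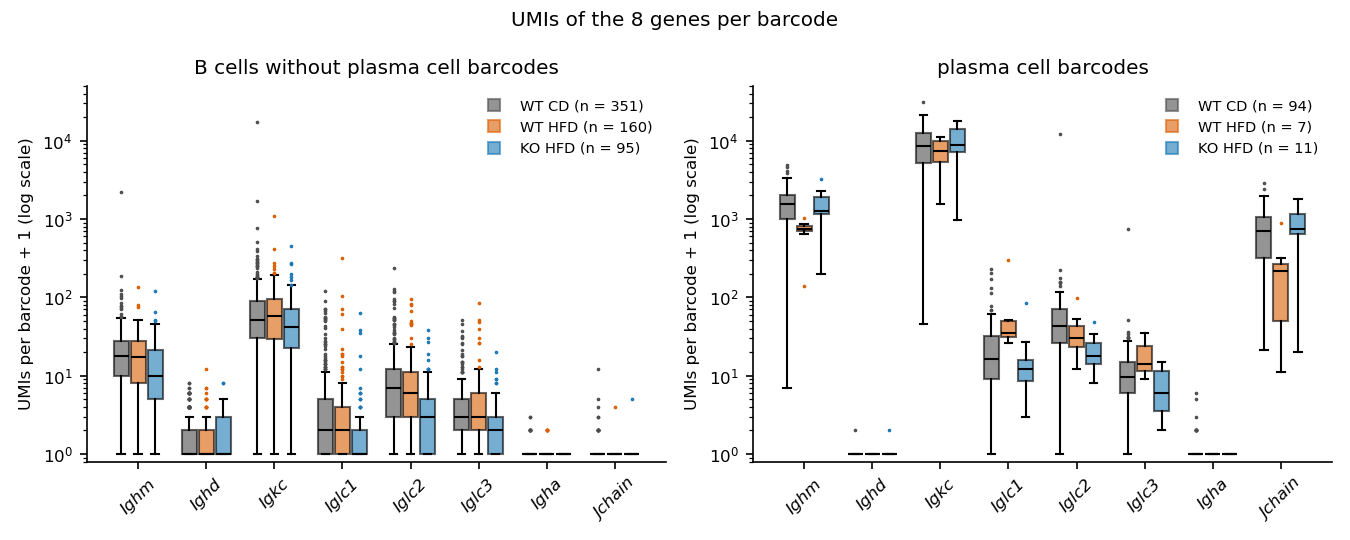
Boxes give UMIs per barcode plus 1 of the 8 genes on a log axis, for B cells without plasma cell barcodes (left) and plasma cell barcodes (right) in each library, with the median as a line, the quartiles as the box, whiskers to the last barcode within 1.5 box lengths and points beyond. Igkc medians of 51, 56.5 and 41 UMIs in B cells stand beside 8459.5, 7325 and 8750 in plasma cell barcodes, while Ighd is near 0 in the latter.

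For diet, the question was whether the genes differed in B cells of WT HFD and WT CD. Over all gated barcodes, Ighm was at 29871 CPM in WT CD and 5306 in WT HFD, a log2 ratio of -2.49 (-2.53 to -2.46). Igkc was at 173336 and 41591 (log2 ratio -2.06, -2.07 to -2.05), Iglc2 at 3923 and 1153 (-1.77, -1.84 to -1.70) and Jchain at 12886 and 1167 (-3.47, -3.53 to -3.40). Thus 4 of the 7 members above 10 CPM were lower by at least 1.5-fold and 0 were higher, where 3.29% of 6507 genes were lower and 29.1% were higher. The median log2 ratio was -1.77 over the members and 0.39 over all genes. A lone lambda plasma cell barcode held 12177 of the 20947 Iglc2 UMIs of WT CD. Without it Iglc2 was within 1.5-fold (-0.52, -0.59 to -0.44), 3 of 7 members were lower and the members' median was -0.52.

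Iglc1 and Iglc3 were at log2 ratios of 0.23 and 0.05 over all gated barcodes and differed more in B cells alone. The differences in Ighm, Igkc, Ighd and Iglc2 were smaller without plasma cell barcodes. Among B cells without them, Ighm had a log2 ratio of -0.33 (-0.39 to -0.27), Igkc of -0.57 (-0.60 to -0.54), Ighd of -0.01 (-0.31 to 0.29), Iglc1 of 0.32 (0.21 to 0.44) and Iglc2 of -0.10 (-0.19 to -0.02). Of 6 members above the floor, 0 were lower by 1.5-fold and 1 was higher, against 4.87% and 12.6% of 6693 genes. The 1 was Iglc3, at 373 and 561 CPM (log2 ratio 0.59, 0.46 to 0.72). By the light chain calls given below, Iglc3 was at 782 and 2093 CPM in lambda B cells, which were 37 and 12 barcodes. It was at 269 and 320 in kappa B cells and at 460 and 661 in those with both types. Thinned to 3000 UMIs per barcode, Iglc3 passed 1.5-fold in 4 of 10 draws. Without the WT CD barcode with 17532 Igkc UMIs, both Ighm and Igkc turned, to log2 ratios of 0.04 (-0.02 to 0.10) and 0.16 (0.13 to 0.19). Iglc1 turned to -0.24 (-0.38 to -0.11) without the WT HFD barcode with the most Iglc1 UMIs. Within B cells of the B cell-like cluster, which hold neither barcode, Igkc was at 8035, 9648 and 10164 CPM and Ighm at 2261, 2472 and 2379 in WT CD, WT HFD and KO HFD. Iglc3 passed 1.5-fold in that cluster, at 397 and 693 CPM in WT CD and WT HFD (log2 ratio 0.80, 0.66 to 0.94). Jchain was lower there in WT HFD, from 28 and 3 UMIs (-1.73, -4.09 to -0.03), and its WT CD level of 10.2 CPM was close to the floor of 10. A lone WT CD barcode held 11 of the 28 UMIs and a lone WT HFD barcode all 3. The plasma cell rule also bounds Jchain in B cells.

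For Thbs1 loss, the KO HFD and WT HFD libraries were compared. Over all gated barcodes, Ighm (log2 ratio 1.68, 1.64 to 1.72), Igkc (1.45, 1.43 to 1.46) and Jchain (3.1, 3.02 to 3.17) were higher in KO HFD, and Iglc1 (-1.09), Iglc2 (-0.90) and Iglc3 (-1.15) were lower. That is 3 higher and 3 lower of 7, where 9.77% of 6769 genes were higher and 17.3% were lower. Without plasma cell barcodes, Ighm (-0.12, -0.22 to -0.03) and Igkc (-0.07, -0.12 to -0.02) were within 1.5-fold. The lambda genes were lower, Iglc1 from 708 to 349 CPM (log2 ratio -1.02, -1.24 to -0.81), Iglc2 from 1104 to 534 (-1.05, -1.22 to -0.88) and Iglc3 from 561 to 255 (-1.14, -1.39 to -0.89). Ighd was higher, from 97.1 to 158 (0.71, 0.32 to 1.09). Thus 1 was higher and 3 were lower of 6, against 14.7% and 13.3% of 7084 genes. A lone WT HFD barcode held 319 of its library's 948 Iglc1 UMIs in B cells. Without it the Iglc1 ratio was -0.45 (-0.68 to -0.23), within 1.5-fold, which leaves 2 lower. This comparison and the one for diet share the WT HFD library. KO HFD B cells were also shallower, with a median of 4659 UMIs against 7312.5 and 8077 in WT HFD and WT CD. Over 10 draws of 3000 UMIs per barcode, Iglc2 (-1.22 to -0.98) and Iglc3 (-0.99 to -0.66) were lower by 1.5-fold in every draw, Iglc1 in 3 and Ighd higher in 9.

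Direct comparison of KO HFD with WT CD gave 5 members lower and 1 higher of 7 in all gated barcodes, against 5.14% and 22.2% of 6379 genes. Without plasma cell barcodes it gave 3 lower (Igkc -0.64, Iglc1 -0.70, Iglc2 -1.15) and 1 higher (Ighd 0.70) of 6, against 8.12% and 20% of 6899 genes. Without the WT CD barcode with 17532 Igkc UMIs, Igkc turned to 0.09 (0.05 to 0.13) and 2 were lower. Thinned to 3000 UMIs, Iglc1 passed 1.5-fold in 0 of 10 draws (median -0.45), as did Igkc (-0.22), and Iglc2 in all 10. Within the B cell-like cluster Igkc was at 0.34 and Iglc2 (-0.90) was the 1 immunoglobulin chain gene lower by 1.5-fold.

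For the 14 genes of the B cell receptor complex and coreceptors in B cells, none was higher and Cd72 and Cr2 were lower in WT HFD than WT CD (log2 ratios -0.91, -1.25 to -0.59, and -0.77, -1.55 to -0.05), and Cd22 alone was lower in KO HFD than WT HFD (-0.69, -1.26 to -0.15). Thus 2 and 1 of 14 were lower, beside 4.87% and 13.3% of all genes, and 0 were higher, beside 12.6% and 14.7%. In KO HFD against WT CD, Syk, a kinase of the receptor's signal, was higher (0.59, 0.32 to 0.86) and Cd72 (-0.87) and Cr2 (-0.88) were lower, 1 and 2 of 14 beside 20% and 8.12% of all genes. Within the B cell-like cluster Cr2 was within 1.5-fold between the WT libraries (-0.51, -1.32 to 0.23) and Cd72 at -0.59, and for KO HFD against WT CD Cd72 was within it (-0.56) and Cr2 (-0.70) and Cd22 (-0.64) were lower. Cd72 and Cd22 encode inhibitory coreceptors and Cr2 encodes the complement receptor CD21. Mzb1, a chaperone of immunoglobulin assembly, was at 599, 627 and 383 CPM, with a log2 ratio of -0.71 (-0.92 to -0.51) for KO HFD against WT HFD.

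Heavy chain class was called where at least 3 heavy chain UMIs and 80% of them belonged to 1 class. IgM or IgD was called in 420 of 428 gated WT CD barcodes with 1 class (98.1%, 96.4 to 99.2), 160 of 160 in WT HFD and 100 of 101 in KO HFD (99.0%). IgG was called in 8, 0 and 1, and IgA and IgE in none, with an interval up to 0.835% of the 440 WT CD barcodes. Most of the IgG calls were plasma cells: without plasma cell barcodes 2, 0 and 1 remained.

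In the plasma cell barcodes the top heavy chain gene was Ighm in 88 of 94 from WT CD, in 7 of 7 from WT HFD and in 11 of 11 from KO HFD. The other 6 of WT CD were 5 Ighg2c and 1 Ighg3. The Ighg2c barcodes held 1352 to 3466 Ighg2c UMIs with 6 to 16 Ighm UMIs, and the Ighg3 barcode held 2479 Ighg3 and 18 Ighm UMIs. Their Jchain counts ran from 81 to 567. No Ighe UMI was found in any gated or plasma cell barcode.

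Light chain type was called where at least 10 light chain UMIs and 80% of them were of 1 type. Lambda was called in 37, 12 and 6 B cells without plasma cell barcodes, and kappa in 231, 108 and 80. Lambda was thus 13.8% (9.9 to 18.5) of the B cells with 1 type in WT CD, 10.0% (5.3 to 16.8) in WT HFD and 7.0% (2.6 to 14.6) in KO HFD, with overlapping intervals. In plasma cell barcodes lambda was called in 1 of 94 (1.06%, 0.0269 to 5.79), below the WT CD B cell interval, and in 0 of 7 and 0 of 11, whose intervals reach 41.0% and 28.5% and hold the B cell shares. The lambda plasma cell barcode, from WT CD, held 12177 Iglc2 UMIs, 191 Igkc, 1643 Ighm and 874 Jchain. Among lambda B cells Iglc2 was the top gene in 18, 7 and 2, Iglc1 in 13, 2 and 3 and Iglc3 in 6, 3 and 1.

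Both types were found in 79 B cells of WT CD (22.5%, 18.2 to 27.2), 37 of WT HFD (23.1%, 16.8 to 30.4) and 6 of KO HFD (6.3%, 2.4 to 13.2). Thinned to 3000 UMIs per barcode, the shares over all gated barcodes were 17.6%, 26.0% and 3.80%. The KO HFD interval before thinning lies below both WT intervals, all of which cover counting error within a library and not differences between mice. These were mostly kappa barcodes with some lambda RNA. In kappa B cells Iglc2 had a median of 4, 3 and 1.5 UMIs and was at 654, 590 and 440 CPM. The lambda share of their light chain UMIs had a median of 9.6%, 8.2% and 5.9%, against 1.0%, 1.4% and 0.3% in kappa plasma cell barcodes. The 3 lambda genes together were at 1117, 1071 and 745 CPM in kappa B cells and at 2.83, 2.30 and 0.169 in barcodes outside both groups. This sum does not depend on which lambda gene a read was given to. Reads left uncounted because they fit more than 1 of these genes would lower it, which was not tested. The source of the lambda RNA in kappa B cells was not tested. With the call at 60% in place of 80%, barcodes with both types fell to 2.98%, 4.27% and 0.980% of those called, in all gated barcodes.

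**Figure D3:**
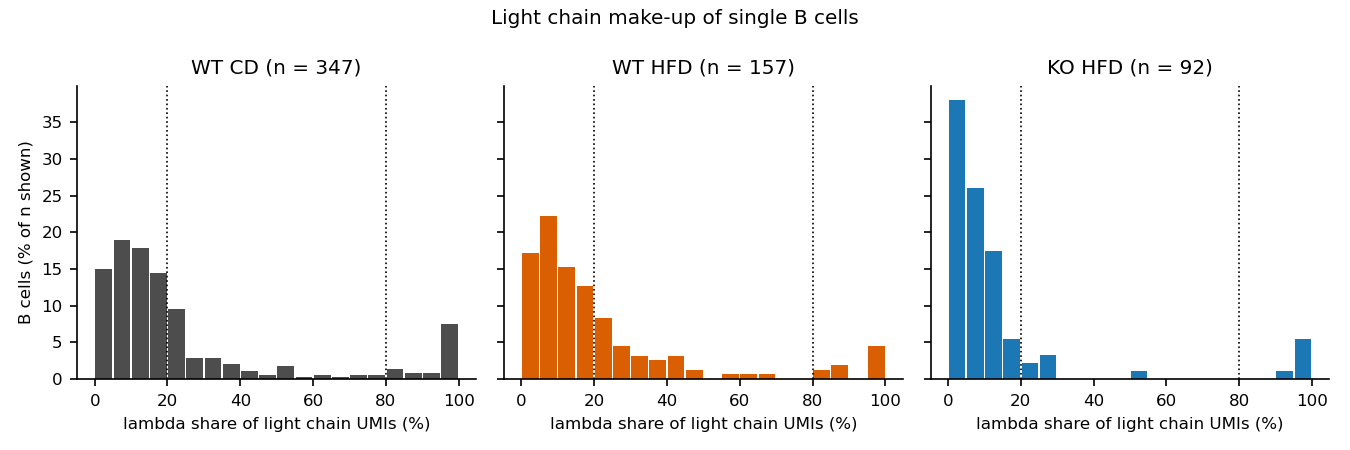
Bars give the percent of B cells without plasma cell barcodes, with at least 10 light chain UMIs, in steps of 5% of the lambda share of light chain UMIs, for each library. Dotted lines mark 20% and 80%, and the 37, 12 and 6 barcodes called lambda lie from 80% up, 22, 6 and 5 of them at 98% or more, while most barcodes lie at 20% or less.

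Ighd was compared with B-1 and follicular genes within B cells, a description in which the points share libraries. Of the barcodes with at least 20 Ighm and Ighd UMIs, Ighd made up under 5% of them in 131, 62 and 23, 5 to 20% in 17, 7 and 3, and over 20% in 3, 1 and 0. Every B cell was then thinned to 3000 UMIs, which left out 39, and the 158 with an Ighd UMI were set beside the 409 without. Of 8 follicular genes, 7 were higher with Ighd, where 51.2% of 6717 genes were. Klf2, which encodes a transcription factor of quiescence, was nearly equal (812 against 767 CPM), as was Il4ra, a cytokine receptor gene (46.4 against 44.0). Fcer2a, which encodes the IgE receptor CD23, was at 158 against 31.8 CPM, Ccr7, a homing receptor, at 209 against 97.8, and Zfp318, a regulator of IgD splicing, at 50.6 against 17.9. Cxcr5, the follicle homing receptor, was the exception at 35.9 against 59.5. Of 10 B-1 genes 1 was higher, Cd5, with 2 and 4 UMIs in all. S100a6, which encodes a calcium-binding protein, was at 1091 against 2788, Vim, which encodes vimentin, at 785 against 1534, and Cd9, which encodes a tetraspanin, at 46.4 against 141. Ighm itself was at 1753 against 2635. Before thinning, these B cells included the 37 barcodes of macrophage-like clusters, with Ighd at 51.5 CPM against 118 in the B cell-like cluster. The comparison was not repeated without them, so their part in the B-1 gene differences was not tested. By library, follicular genes were higher with Ighd in 5, 6 and 5 of 8 and B-1 genes in 0, 4 and 1 of 10, beside 53.5%, 56.2% and 47.9% of all genes.

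The same lists were then compared between libraries. In B cells of WT HFD against WT CD, 3 of 9 B-1 genes above the floor were higher and 0 lower, with Ahnak, encoding a large scaffold protein, at a log2 ratio of 0.64 (0.51 to 0.77), Itgam, which encodes CD11b, at 0.93 (0.40 to 1.44) and Myo1d, an unconventional myosin gene, at 1.57 (0.72 to 2.43). Cr2 alone of 8 follicular genes was lower and 0 were higher, where 12.6% of all genes were higher and 4.87% lower. Of KO HFD against WT HFD, 1 of 8 B-1 genes was higher and 3 were lower, and Ccr7 alone of the follicular genes was higher (0.82, 0.38 to 1.27), beside 14.7% higher and 13.3% lower of all genes. Of KO HFD against WT CD, 6 of 9 B-1 genes were higher, among them Ahnak (0.85, 0.68 to 1.01), Vim (0.67, 0.58 to 0.75) and S100a6 (0.59, 0.52 to 0.66), and Spn, which encodes CD43, was lower (-0.81, -2.76 to 0.68), beside 20% and 8.12% of all genes. The median log2 ratios over the B-1 genes were 0.46, 0.11 and 0.63 in these comparisons, beside 0.12, -0.01 and 0.13 over all genes. Those of the follicular genes were 0.03, 0.21 and 0.35, and in KO HFD against WT CD 1 of 8 was higher and 1 lower. Within the B cell-like cluster, 1, 1 and 2 of 8 B-1 genes were higher and 0, 1 and 0 lower, beside 10.3%, 17.6% and 17.8% of all genes higher and 6.48%, 13.3% and 8.84% lower, with medians of 0.29, 0.06 and 0.46 beside 0.09, 0.02 and 0.12. Of 8 follicular genes 0, 2 and 2 were higher and 1, 0 and 1 lower there, with medians of -0.12, 0.28 and 0.41.

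Variable (V) gene UMIs of the plasma cell barcodes were read as a further description, by a rule set after the values were seen: the top heavy and top light V gene each had at least 5 UMIs and 50% of its kind. A pair was found in 88 of 94, 5 of 7 and 9 of 11 barcodes, 102 in all, which formed 54 pairs. In WT CD, 12 pairs occurred in more than 1 barcode and covered 56 barcodes (63.6%). In KO HFD 1 pair covered 4 (44.4%), and WT HFD had none. The junction sequence was not read, so a shared pair is not shown to be a shared clone.

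The most frequent pairs in WT CD were Ighv1-53 with Igkv1-117 (12 barcodes), Ighv1-26 with Igkv3-2 (9) and Ighv9-3 with Igkv4-59 (8). All of these were Ighm barcodes. Ighv12-3 with Igkv4-91, a pairing known from B-1a cells that bind phosphatidylcholine, occurred in 5 WT CD barcodes. The other such pairing, Ighv11-2 with Igkv14-126, occurred in 1 KO HFD barcode. Ighv7-1 with Igkv15-103 accounted for the 4 KO HFD barcodes. Ighv8-8 with Igkv10-96 occurred in 3 WT CD barcodes, all with Ighg2c on top, while 2 barcodes of Ighv8-8 with Igkv4-72 were Ighm. The pair Ighv1-55 with Igkv12-89 alone occurred in more than 1 library, in 2 WT CD and 1 WT HFD barcodes.

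**Figure D4:**
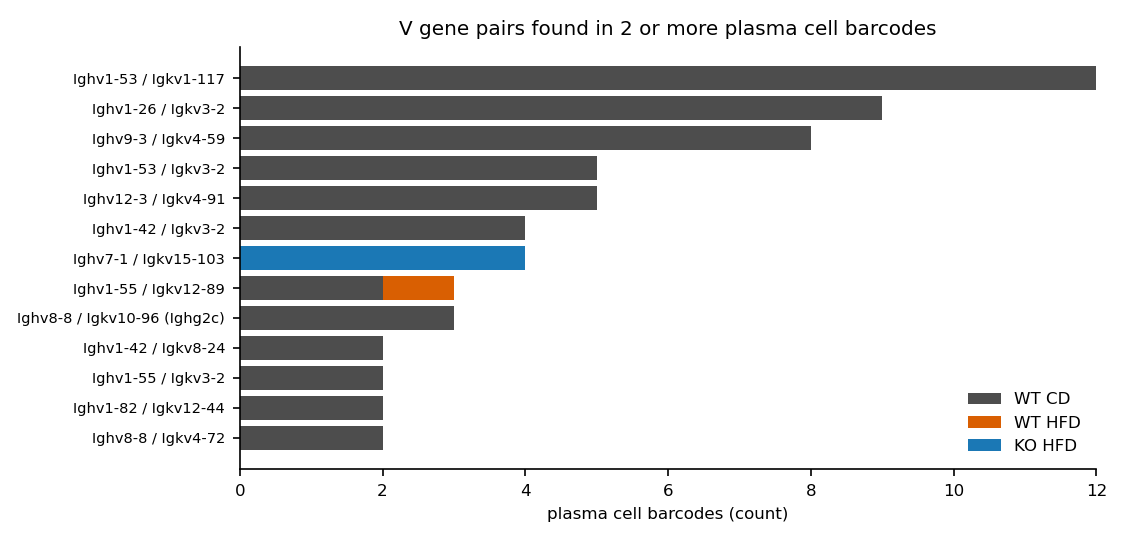
Horizontal bars count the plasma cell barcodes of each heavy and light V gene pair found in at least 2 barcodes, coloured by library. The longest bars are the WT CD pairs with 12, 9 and 8 barcodes, and the 4 barcodes of Ighv7-1 with Igkv15-103 are all from KO HFD.

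Genes most like a member over the 712 gated barcodes were sought for the 6 members with at least 1 UMI per barcode on average. By Pearson correlation of log counts centred within library, among 7537 genes, Jchain was nearest to Txndc5 (r = 0.807), Xbp1 (0.803) and Derl3 (0.795), Ighm to Txndc5 (0.706) and Derl3 (0.703), and Igkc to Txndc5 (0.650) and Derl3 (0.638). Txndc5 encodes a disulfide isomerase and Derl3 a factor of protein degradation at the endoplasmic reticulum. Iglc1 and Iglc2 were nearest to Mzb1 (0.420 and 0.431), followed for Iglc1 by Eaf2 (0.381), and Iglc3 was nearest to Ssr4 (0.232). The points share libraries and depth, and plasma cell barcodes are among them. Over the 606 B cells without plasma cell barcodes, Ighm was nearest to Mzb1 (0.419) and Plac8 (0.372), Iglc2 to Mzb1 (0.374), and Igkc to Cd79a (0.219), a gene of the gate.

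Constant gene UMIs also occurred in cells that should lack them. In FAP-like cells, the stromal fibro-adipogenic progenitors, Igkc UMIs were found in 29.9% (27.7 to 32.2) of 1598 cells in WT CD, in 2.22% of 1442 in WT HFD and in 3.05% of 1806 in KO HFD. Thinned to 3000 UMIs per cell, the shares were 12.9%, 0.711% and 1.19%. The level was 47.3 CPM in WT CD, 2.35 in WT HFD and 3.46 in KO HFD. Over 9 classes of WT CD the share with Igkc ran from 21% to 36.1%. Neutrophil-like cells of WT CD, not among these 9, held Igkc in 38.5% (13.9 to 68.4) of 13 cells. Jchain followed, in 3.07%, 0.277% and 0.221% of FAP-like cells. No Igha UMI was found in any of these classes.

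Plasma cell barcodes and B cells were split by the Jchain rule itself, which bounds how far apart their Jchain proportions lie. Jchain in WT CD FAP-like cells was set beside both as a description, and the source of that RNA was not tested. There were 7.76 Jchain UMIs per 100 Igkc UMIs (5.74 to 10.3), where plasma cell barcodes held 7.80 and B cells 0.0731, or 0.114 without the barcode of 17532 Igkc UMIs. Ighm was at 17.3 per 100 Igkc (14.1 to 21.1) in those cells, 17.1 in plasma cell barcodes and 21.6 in B cells (27.5 without that barcode), but at 25.6 (16.7 to 38.3) and 26.7 (16.1 to 42.8) in MuSC-like (muscle stem cell) and endothelial-like cells of WT CD. Jchain in MuSC-like, endothelial-like and macrophage-like cells of WT CD was at 13.2 (7.32 to 22.4), 14.0 (6.94 to 25.6) and 10.7 (5.98 to 18.0) per 100 Igkc. WT HFD and KO HFD offered only 32 and 55 Igkc UMIs in FAP-like cells. Jchain proportions in those cells were 12.5 (3.21 to 35.2) and 7.27 (1.91 to 19.7) per 100, where plasma cell barcodes held 3.47 and 8.84. Their Ighm proportions were 28.1 (11.8 to 60.3) and 16.4 (7.11 to 33.4), intervals that hold the B cell values of 25.4 and 24.5 and, in KO HFD alone, the plasma cell value of 14.7 (9.73 in WT HFD). Shares of cells with an Igkc UMI at this level were not read as expression. Kappa UMIs in lambda B cells of WT CD had a median of 1 per barcode.

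Macrophage-like cells departed from that pattern for Ighm. They carried Ighm in 53.7% (47.4 to 59.9) of 257 WT CD cells, 45.8% (40.9 to 50.6) of 424 WT HFD cells and 44.8% (40.2 to 49.5) of 464 KO HFD cells, and in 24.0%, 27.6% and 25.1% after thinning. The level, 86.6, 92.2 and 76.7 CPM, was similar in libraries whose FAP-like cells held 8.20, 0.661 and 0.566. Igkc in the same cells followed the other classes, in 35.4%, 5.19% and 4.74%. Ighm thus stood at 178, 654 and 1959 UMIs per 100 Igkc. By cluster, macrophage-like cluster 9 was at 185, 184 and 180 CPM and cluster 10 at 56.2, 46.4 and 35.0, while cluster 21 held 7 Ighm UMIs in 8 WT CD cells (67.3 CPM) and 0 in the HFD libraries. Dendritic cell-like cells (36.1%, 26.8% and 28.4%) and T or NK cell-like cells (30.7%, 29.4% and 22.5%) also held Ighm more often than FAP-like cells (6.20%, 0.485% and 0.498%). In T or NK cell-like cells, 149 of 202 Igkc UMIs in WT CD and 118 of 127 in WT HFD came from 2 barcodes each with at least 3 Cd79a and Cd79b UMIs. The counts merge Ighm transcripts of any form, including those without a V segment.

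**Figure D5:**
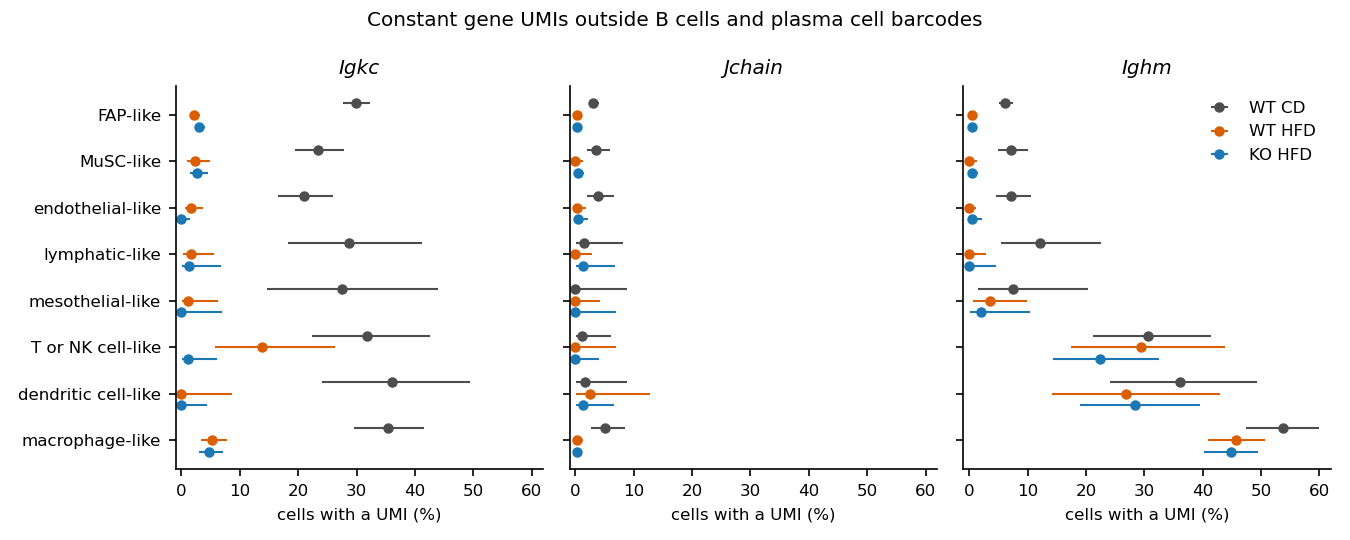
Points give the percent of cells with at least 1 UMI of Igkc, Jchain or Ighm in classes outside the B lineage, with exact 95% Clopper-Pearson intervals, coloured by library. Igkc is raised in all classes of WT CD (29.9% of FAP-like cells against 2.22% and 3.05%), whereas Ighm stays between 44.8% and 53.7% in macrophage-like cells of all 3 libraries.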

How the data were processed

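The authors deposited raw UMI counts per gene and barcode for 3 libraries (10x 3′ chemistry, Cell Ranger 6.1.1 and mm10 in the submitters' processing notes), with no normalization. All 12275 barcodes were kept. Doublets called by Scrublet (expected rate 0.06) made up 1.26, 1.09 and 1.33% of barcodes in WT CD, WT HFD and KO HFD and stayed in unless stated. Clusters came from scanpy 1.11.5 and leidenalg 0.10.2 under Python 3.11.15 (2000 variable genes without immunoglobulin genes, 30 components, 15 neighbours, resolution 1) and were named "-like" from marker genes, so differences from the study's populations may come from the rebuilt names. The background counted genes that reached 10 CPM in either library of a comparison. A count of 0 was read against a floor of 3 counts. No test between groups was made because each has 1 library. Ratios were checked on simulated Poisson counts of summed barcodes. These hold no spread between barcodes, so the check does not cover ratios decided by single barcodes. Named genes were the 8 members, genes of the lists and up to 3 genes most correlated with a member (r at least 0.2); some listed genes are not reported here. The members and lists were chosen with earlier results of these data known. Gates, call thresholds, doublets, depth and normalization were varied as alternatives.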

Additional observations from a re-analysis of the deposited data

How the results depend on the processing

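Log2 ratios of Ighm and Igkc over gated barcodes depended on plasma cell barcodes, which hold most of these UMIs. For WT HFD against WT CD, Ighm was -2.54 with the gate at 2 UMIs and also without doublets, -2.79 as CPM of non-immunoglobulin UMIs, -2.33 thinned, -0.33 without plasma cell barcodes, -0.26 without those and macrophage-like clusters, -0.11 in B cell-like clusters (here with every barcode of the cluster, plasma cell barcodes among them) and 0.035 without plasma cell barcodes and plasma cell-like clusters. Igkc was -2.10 and -2.02 with the gate at 2 and 6 UMIs, -2.11 without doublets, -2.04 without low quality barcodes, -2.35 as CPM of non-immunoglobulin UMIs, -2.09 thinned, -0.57 without plasma cell barcodes, -0.46 without those and macrophage-like clusters, 0.14 without those and plasma cell-like clusters and 0.28 in B cell-like clusters. For KO HFD against WT HFD, Ighm was 1.42 with the gate at 6 UMIs, 1.73 without doublets, 1.83 as CPM of non-immunoglobulin UMIs, 1.10 thinned, -0.10 in B cell-like clusters, -0.12 without plasma cell barcodes, -0.082 without those and plasma cell-like clusters and -0.14 without those and macrophage-like clusters. Igkc was 1.27, 1.51, 1.43 (low quality barcodes left out), 1.59, 1.18, -0.11, -0.070, 0.041 and -0.080 in the same order. Without plasma cell barcodes and the WT CD barcode richest in Igkc, the WT HFD barcode richest in Iglc1, or thinned, Ighm was 0.043, -0.37 and -0.14 for WT HFD against WT CD and -0.12, -0.082 and -0.17 for KO HFD against WT HFD, and Igkc 0.16, -0.68 and -0.24, and -0.070, 0.041 and 0.0065. Among single genes, Iglc2 in WT HFD against WT CD turned to 0.19 in B cell-like clusters and 0.051 without plasma cell barcodes and macrophage-like clusters, and Jchain in KO HFD against WT HFD turned to -2.0 in B cell-like clusters, where 1 WT HFD plasma cell barcode held 27 Jchain UMIs and the B cells of WT HFD and KO HFD held 3 and 4. The share with IgM or IgD was 99.7% in B cell-like clusters and 99.4% without plasma cell barcodes in WT CD, and 100% from 10 heavy chain UMIs in KO HFD. Barcodes with both light chains were 22.6% in B cell-like clusters and 22.8% of those called without plasma cell barcodes in WT CD, and 2.98%, 4.27% and 0.980% with the call at 60%. Igkc in WT CD FAP-like cells was 52.3 CPM with classes by marker UMIs, and Ighm in macrophage-like cells was 101 in WT HFD and 87.4 in KO HFD with those classes and 133 and 111 thinned. The counts of B cells and plasma cell barcodes stayed within 1.5 times under every alternative run on them. Settings without plasma cell-like or macrophage-like clusters or single barcodes, thinning without plasma cell barcodes, and class and light chain calls without plasma cell barcodes, were chosen after seeing the data. Plasma cell values of WT HFD and KO HFD rest on 7 and 11 barcodes. No paired analysis was possible because each group has 1 library.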

Other observations

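S1pr2, a germinal centre receptor gene, gave 5, 3 and 1 UMIs in the B cells without plasma cell barcodes of WT CD, WT HFD and KO HFD. The cycling genes Mki67 and Top2a gave 79 and 149 UMIs in WT CD, 15 and 15 in WT HFD and 0 and 0 in KO HFD. Of these, 59 and 134 in WT CD lay in 12 barcodes of the plasma cell-like cluster and 13 and 7 in WT HFD in 1 such barcode, and no KO HFD B cell lay there. In plasma cell barcodes Mki67 was found in 12.8%, 42.9% and 27.3%. Apart from these, 3 WT CD barcodes of 1372 to 1584 UMIs in unnamed clusters held 133 to 218 Igkc UMIs with 1 or 2 Jchain UMIs and belonged to neither group.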
